A study of Mus musculus with 18 samples.

Results

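Transcription factors that mark the stroma of the kidney were followed in the 3 cell types of the mouse glomerulus: *Meis1*, *Meis2*, *Pbx3*, *Gata3*, *Nr2f1*, *Nr2f2* and *Ebf1*. They were taken as a named set, by gene symbol, from the annotated array table, and make up 7 of its 22909 gene symbols and 8 of its 28856 transcript clusters, the probe sets that stand for a gene on the array. *Ebf1* has 2 transcript clusters and was read from the brighter of them. Mesangial cells, podocytes and endothelial cells were sorted by GFP from glomeruli of 5 week old mice recorded as either *Cd2ap-/-* (strain B6.129X1-Cd2ap tm1Shaw/J) or wild type. Column names of the mesangial controls read +:-, as for heterozygous mice, and these arrays are called wild type here by the sample records. Names of the other control columns hold plus signs only. In comparisons that set mesangial controls against those of another cell type, control genotype and cell type therefore cannot be told apart. *Cd2ap* encodes an adaptor protein of the podocyte slit diaphragm, and mice without it are a model of focal segmental glomerulosclerosis. All mice carried a GFP reporter, among them *Meis1-GFP*, from an artificial chromosome with the *Meis1* promoter, for mesangial cells and *Tie2-GFP* for endothelial cells. Each of the 6 groups had 3 Mouse Gene 1.0 ST arrays, which the series record calls biological triplicates, and whether mice were pooled is not given in the sources used here. Values are linear RMA signals of the arrays, always listed in the order A, B and C, letters that only name an array.

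*Meis1* and *Meis2* are homeodomain proteins of the TALE class that bind DNA together with Pbx partners such as *Pbx3*, and *Meis1* is a well known marker of the renal stroma. *Gata3* is a zinc finger factor needed for the nephric duct and for T cells, and it is also used as a marker of mesangial cells. *Nr2f1* and *Nr2f2*, also called COUP-TFI and COUP-TFII, are closely related orphan nuclear receptors, of which *Nr2f2* is known for venous endothelial identity and for mesenchyme. *Ebf1* is a helix-loop-helix factor best known from B cell development, and it is also active in stromal cells and fat.

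The sorted populations carried their own markers, with some signal of their neighbours. The summed signal of 10 mesangial markers was 9235 to 13689 in mesangial arrays, 1110 to 4852 in podocyte arrays and 637 to 1012 in endothelial arrays. Wild type mesangial array C stood apart, with 4210 for 10 podocyte markers against 1149 and 1297 in arrays A and B, and 8587 for 10 endothelial markers against 3311 and 3719. Mutant podocyte array C stood apart in the other direction, with 1110 for the mesangial markers against 3629 and 3064 in mutant arrays A and B. Pearson's r between arrays of a group was 0.967 to 0.971 for mutant podocytes and 0.98 to 0.992 for the other groups. *Cd2ap* itself was 819.2, 870.4 and 797.0 in mutant mesangial arrays against 921.6, 1036.9 and 1122.8 in wild type ones, while its endothelial signals, 891.4, 965.8 and 920.4 in mutants against 839.8, 858.5 and 757.2, lay above the wild type ones. Its podocyte signals were 1512.4, 1502.7 and 1478.3 in mutants and 2108.1, 1670.4 and 1546.5 in wild type arrays. The probes are not placed relative to the deletion in the sources used here, and genotypes are those of the sample records. The column names of the mesangial controls read +:- and their titles say control, where the sample records give wild type. The Y-linked gene *Ddx3y* was at 100 or more in wild type mesangial arrays B and C, mutant endothelial arrays A and B, mutant podocyte array B and wild type podocyte array A, so the sexes were not balanced between genotypes in mesangial and endothelial cells. In sorted bulk samples, fewer cells of a type and less RNA per cell cannot be told apart.

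Across cell types, the set split into 3 patterns. *Gata3*, *Nr2f1*, *Nr2f2* and *Ebf1* were highest in mesangial arrays of both genotypes, *Meis2* was highest in endothelial arrays, and *Pbx3* was of similar level in all. In wild type arrays, *Meis1* left out because it marked the sorted cells, 3 of 6 genes passed the threshold as higher in mesangial cells than in podocytes, *Gata3*, *Nr2f1* and *Ebf1*, where 3.73% of all 13523 transcript clusters did. Against endothelial cells, 4 passed as higher, where 4.75% of all transcript clusters did, and *Meis2* passed as lower, where 3.79% did. The threshold was an adjusted p under 0.05 and a fold over 2 in a limma fit of all 18 arrays. The median log2 difference of the 6 genes was 1.04 for mesangial minus podocyte and 1.78 for mesangial minus endothelial as fitted, and over all transcript clusters it was 0.02 and -0.02. Both comparisons share the wild type mesangial arrays. Podocytes passed above endothelial cells in *Gata3* and *Nr2f2*, and in *Nr2f1* as fitted, where 5.14% of all transcript clusters did, and below them in *Meis2*, where 4.67% did. The endothelial arrays of *Gata3* and *Nr2f1* all lay under 100, the minimum that the study used, so folds against them are given only as bounds, with the endothelial signal set to 100. At these bounds the median for mesangial minus endothelial was 1.37, and *Nr2f1* did not reach the fold of 2 between podocytes and endothelial cells. Groups of wild type arrays did not overlap for 5 of the 6 genes between mesangial cells and podocytes, for 6 between mesangial and endothelial cells and for 5 between podocytes and endothelial cells, where 44.9%, 45.8% and 49.4% of all transcript clusters had no overlap.

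**Figure D1:**
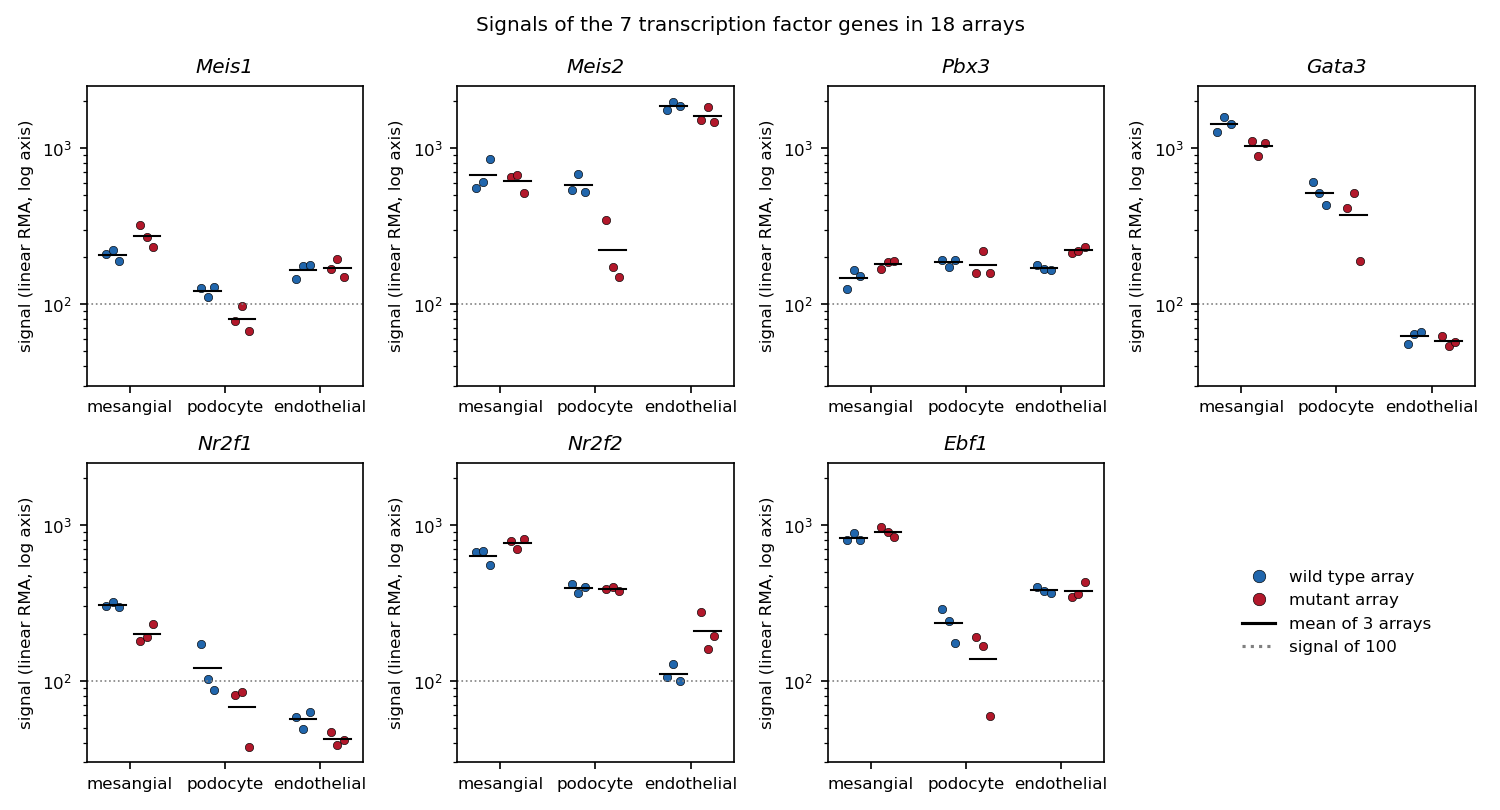
Linear RMA signal on a log axis for each gene in each array, by cell type, with wild type arrays in blue, mutant arrays in red, a black line at the mean of 3 arrays and a dotted line at a signal of 100. *Gata3* falls from a wild type mean of 1425 in mesangial arrays to 62.3 in endothelial arrays, and *Meis2* is highest in endothelial arrays with a wild type mean of 1874.

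*Meis1* served to sort the mesangial cells, so its levels across cell types are only described. Its signal was 209.7, 224.0 and 189.1 in wild type mesangial arrays, 126.8, 110.9 and 128.3 in podocyte arrays and 144.2, 176.0 and 177.2 in endothelial arrays. The mesangial arrays were the highest and the podocyte arrays the lowest, with no overlap between the 3 cell types. Wild type endothelial arrays kept 79.9% of the mesangial mean and podocyte arrays 58.8%, and the gene that drives the reporter was above a signal of 100 in every wild type array of each sort.

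*Meis2*, its closest relative in the set, had another order. Its signal was 557.7, 610.1 and 852.4 in wild type mesangial arrays, 535.4, 683.9 and 526.9 in podocyte arrays and 1757.2, 1988.8 and 1875.0 in endothelial arrays. The endothelial arrays lay far above the rest, while mesangial and podocyte arrays overlapped. Mesangial minus endothelial was -1.50 on the log2 scale (SE 0.24, 95% interval -2.01 to -0.98, limma adjusted p = 1.83e-04), and mesangial minus podocyte was 0.20 (SE 0.24, 95% interval -0.32 to 0.71, adjusted p = 0.598). The highest mesangial value came from array C, which also carried the endothelial markers, and without it the difference from podocytes was 0.01 and that from endothelial cells -1.68. Podocyte minus endothelial was -1.70 (SE 0.24, adjusted p = 5.12e-05).

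*Pbx3*, a DNA binding partner of both Meis proteins, differed little. Its signal was 125.2, 165.9 and 152.8 in wild type mesangial arrays, 193.5, 172.0 and 191.3 in podocyte arrays and 179.0, 168.2 and 166.5 in endothelial arrays. The mesangial arrays were the lowest, and those of podocytes and endothelial cells overlapped. Mesangial minus podocyte was -0.33 (SE 0.13, 95% interval -0.60 to -0.06, adjusted p = 0.0695) and mesangial minus endothelial -0.22 (SE 0.13, 95% interval -0.49 to 0.05, adjusted p = 0.225), so neither difference passed.

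*Gata3* had the widest range of the 7 genes in wild type arrays. Its signal was 1276.0, 1579.1 and 1418.9 in wild type mesangial arrays and 605.9, 517.7 and 434.6 in podocyte arrays. In wild type endothelial arrays it was 55.7, 64.9 and 66.4, all under 100. No array of one cell type reached those of another. Mesangial cells were 2.76-fold above podocytes (log2 difference 1.46, SE 0.25, adjusted p = 5.11e-04) and at least 14.2-fold above endothelial cells (log2 difference as fitted 4.51, SE 0.25, adjusted p = 1.98e-09). Podocytes in turn were at least 5.15-fold above endothelial cells (3.05 as fitted, SE 0.25, adjusted p = 1.65e-07). As *Gata3* also marks T cells and collecting ducts, 14 leukocyte and 12 tubule markers were read beside it. The leukocyte sum lay between 662 and 1147 and the tubule sum between 645 and 1542 over the 18 arrays, with the highest of both in wild type mesangial array C. The part of such cells in the *Gata3* signal was not tested.

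The nuclear receptors *Nr2f1* and *Nr2f2* were both highest in mesangial cells. *Nr2f1* was 301.8, 317.5 and 297.3 in wild type mesangial arrays, 171.6, 102.8 and 87.6 in podocyte arrays and 58.7, 49.4 and 62.7 in endothelial arrays. Its 3 cell types did not overlap, although the podocyte arrays were spread widely, with an SD of 44.8 about a mean of 120.6. Mesangial cells were 2.64-fold above podocytes (1.40, SE 0.27, adjusted p = 0.00106) and at least 3.05-fold above endothelial cells (2.43 as fitted, SE 0.27, adjusted p = 3.44e-06). Podocyte minus endothelial was 1.03 as fitted (SE 0.27, adjusted p = 0.0067), but podocyte array C lay under 100 as well and the bound was a fold of 1.16. The call ended at 0.74 without wild type podocyte array A and at 0.93 without wild type endothelial array B.

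*Nr2f2* was 665.5, 681.9 and 551.7 in wild type mesangial arrays, 419.3, 364.9 and 398.6 in podocyte arrays and 105.8, 127.5 and 99.3 in endothelial arrays. Here too the 3 cell types did not overlap. Mesangial minus podocyte was 0.68 (SE 0.16, adjusted p = 0.00465), a fold of 1.60 that passed on p and missed the fold of 2. Mesangial minus endothelial was 2.51 (SE 0.16, adjusted p = 6.01e-09) and podocyte minus endothelial 1.84 (SE 0.16, adjusted p = 2.06e-07). The share of array background in signals under 100, as for *Gata3* and *Nr2f1* in endothelial arrays, is not known.

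*Ebf1* was highest in mesangial cells, followed by endothelial cells. Its signal was 797.8, 879.1 and 798.9 in wild type mesangial arrays, 288.2, 241.6 and 174.9 in podocyte arrays and 399.8, 375.4 and 363.4 in endothelial arrays. No 2 cell types overlapped. Mesangial cells were 3.58-fold above podocytes (1.84, SE 0.30, adjusted p = 3.16e-04) and 2.17-fold above endothelial cells (1.12, SE 0.30, adjusted p = 0.0115), while podocyte minus endothelial was -0.72 (SE 0.30, adjusted p = 0.0819). The other transcript cluster of *Ebf1* gave 1.32 and 1.44 for the 2 mesangial differences (adjusted p = 9.38e-05 and 2.59e-05). It gave 0.12 for podocyte minus endothelial (adjusted p = 0.675), so the order of these 2 cell types was not the same in both transcript clusters.

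In mutant arrays some groups lay wholly under 100, namely *Meis1* and *Nr2f1* in podocytes and *Gata3* and *Nr2f1* in endothelial cells, and folds against them are again bounds. Mesangial cells were at least 2.72-fold above podocytes in *Meis1* and 0.68 above endothelial cells on the log2 scale, as a description. *Meis2*, *Gata3* and *Ebf1* passed as higher in mesangial cells than in podocytes, where 5.53% of all transcript clusters did. *Nr2f1* met the threshold there as fitted, but its bound was a fold of 1.99, under the 2 that a call needs. *Ebf1* differed by 2.87 (SE 0.30, fold 7.29, adjusted p = 2.69e-06) and *Meis2* by 1.55 (SE 0.24, fold 2.92, adjusted p = 1.33e-04). *Nr2f2* differed by 0.98 (SE 0.16, adjusted p = 1.61e-04), a fold of 1.97 just under the threshold, which it passed without mutant mesangial array B (1.04) or mutant podocyte array B. Mutant mesangial cells were at least 10.2-fold above endothelial cells in *Gata3* (4.14 as fitted, SE 0.25, adjusted p = 5.17e-09). *Nr2f1* met the threshold as fitted (adjusted p = 6.59e-06), but its bound was again a fold of 1.99. The fold for *Nr2f2* was 3.74 (adjusted p = 1.19e-07) and that for *Ebf1* 2.40 (adjusted p = 0.00464). *Gata3*, *Nr2f2* and *Ebf1* thus passed in both genotypes against endothelial cells, and *Meis2* was lower in mesangial cells in both, by -1.39 in mutants (SE 0.24, adjusted p = 3.23e-04). In mutants, 4.45% of all transcript clusters passed as higher and 5.54% as lower in that comparison. Mutant podocytes were above mutant endothelial cells in *Gata3*, by at least 3.41-fold (2.56 as fitted, SE 0.25, adjusted p = 8.02e-07), where 4.58% of all passed as higher. They were below them in *Meis2* (-2.94) and *Ebf1* (-1.60), with adjusted p of 1.04e-07 and 4.06e-04, where 8.68% passed as lower, and *Meis1* was lower by a fold of at least 1.7 as a description. Without mutant endothelial array A *Nr2f2* passed as higher (1.14). With the mean over both transcript clusters, *Ebf1* was at -0.92 there and missed the fold of 2.

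**Figure D2:**
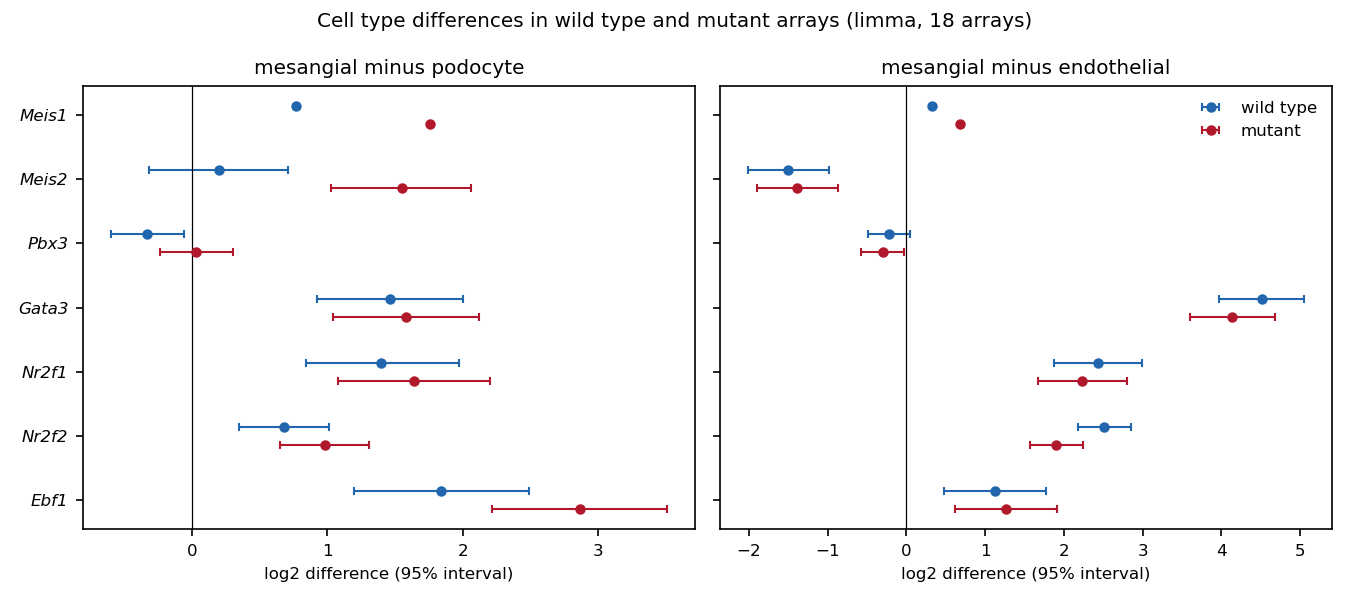
Log2 difference of mesangial minus podocyte (left) and mesangial minus endothelial (right) for each gene, wild type in blue and mutant in red, with 95% intervals of the limma fit over 18 arrays and no interval for *Meis1*, whose promoter marked the sorted cells. *Gata3* lies as fitted at 4.51 and 4.14 against endothelial cells, with bounds of 3.83 and 3.35. Endothelial signals of *Gata3* and *Nr2f1* were under 100. *Meis2* lies at 0.20 in wild type but 1.55 in mutant arrays against podocytes.

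Signals of the set in podocyte arrays were set beside those of the mesangial markers, each as a share of its own mesangial mean in wild type arrays. *Gata3* stood at 36.4%, *Nr2f1* at 39.5% and *Ebf1* at 28.5%. *Pdgfrb*, the receptor that holds mesangial cells in the glomerulus, stood at 35.8%, *Itga8*, an integrin chain of mesangial cells, at 35.6% and *Agtr1a*, an angiotensin receptor, at 33.4%. The 10 mesangial markers ranged from 20.4% to 74.5% with a median of 34.9%. *Nr2f2* was at 62.3%, above 9 of these 10 markers, and *Meis2* and *Pbx3* lay above all of them, at 86.4% and 125%. Wild type podocyte arrays also had 4668 to 6218 for 10 endothelial markers, against 16294 to 17763 in wild type endothelial arrays. *Meis2* was highest in the latter. What part mesangial and endothelial RNA have in the podocyte signals was not tested.

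Sequence upstream of the genes was taken from RefSeq for 6 of the 7, each as 250 bases before an annotated start in GRCm38.p6, 8 windows in all. Windows of *Gata3*, *Nr2f1* and *Nr2f2* are shown because these 3 genes had the same order of cell types. Capitals mark CG dinucleotides. *Gata3* (chr2:9878601-9878850, minus strand), *Nr2f1* (chr13:78198874-78199123, minus strand) and *Nr2f2* (chr7:70366747-70366996, minus strand) read, 5′ to 3′:
Gata3: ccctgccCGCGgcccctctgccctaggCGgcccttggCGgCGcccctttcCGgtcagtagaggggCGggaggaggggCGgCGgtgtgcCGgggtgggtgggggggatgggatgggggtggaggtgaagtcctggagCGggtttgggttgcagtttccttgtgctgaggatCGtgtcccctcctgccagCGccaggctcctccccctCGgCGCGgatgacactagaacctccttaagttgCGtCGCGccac
Nr2f1: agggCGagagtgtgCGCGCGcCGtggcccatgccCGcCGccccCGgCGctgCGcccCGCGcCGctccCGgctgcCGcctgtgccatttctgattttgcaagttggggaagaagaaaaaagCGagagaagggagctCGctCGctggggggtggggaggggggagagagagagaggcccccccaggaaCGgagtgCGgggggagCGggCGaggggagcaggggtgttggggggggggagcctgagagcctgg
Nr2f2: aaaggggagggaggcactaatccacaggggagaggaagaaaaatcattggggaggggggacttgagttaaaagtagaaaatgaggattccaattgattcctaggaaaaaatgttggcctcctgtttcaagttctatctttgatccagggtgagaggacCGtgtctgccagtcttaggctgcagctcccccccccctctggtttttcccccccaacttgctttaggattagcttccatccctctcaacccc
The window of *Gata3* held 19 CG dinucleotides at 70.0% G and C, and that of *Nr2f1* held 22 at 72%. The window of *Nr2f2* held 1 at 50%, and the median over all 32851 windows of the table was 6 at 52.4%. The other window of *Nr2f1*, at another start, held 2 at 39.6%. *Meis1* had 13, *Meis2* had 7, and the windows of *Ebf1* had 9 and 14. Both strands of the windows were searched for short motifs. The letters TGACAG, bound by Meis and Tgif proteins, were in none of the 8 windows and in 15.9% of all windows. The letters AGATAA, which zinc finger factors such as *Gata3* bind, were in none of the 8 and in 9.99% of all. The letters AGGTCA, a nuclear receptor half-site, were in none of the 8 and in 14.0% of all. The Ebf motif, searched as CCCNNGGG, was in none of the 8 and in 11.8% of all. This says only that these letters are not in these windows.

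Between genotypes, 1 of the 7 members passed in 1 of the 3 cell types. In mesangial cells *Nr2f1* fell in the mutants and was the sole member past an adjusted p of 0.05, where 2.92% of 11457 transcript clusters passed and 1.68% passed as lower. There 5 of 7 members were at an unadjusted p under 0.05, as were 21.7% of all. In podocytes no member passed by limma, where 0.0578% of 12113 did, and 3 of 7 were at an unadjusted p under 0.05, all lower, as were 14.3% of all in either direction. In endothelial cells no member of the 5 that were tested passed, where 1.29% of 11330 did, and 2 of 5 were at an unadjusted p under 0.05, both higher, as were 18.5% of all in either direction. The median log2 difference of the members was 0.13 in mesangial cells, -0.60 in podocytes and 0.04 in endothelial cells, against -0.02, -0.04 and 0.07 over all transcript clusters tested. *Meis1* and *Nr2f1* reached a signal of 100 in podocytes only in wild type arrays, so nothing is read from the podocyte counts and median that include them. Each comparison used its own 6 arrays.

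**Figure D3:**
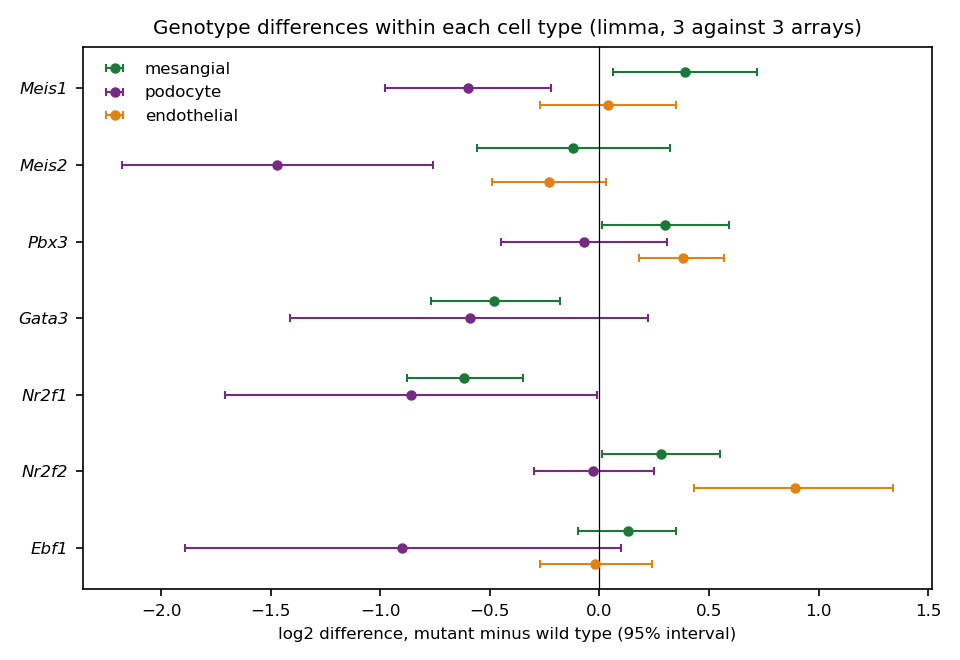
Log2 difference of mutant minus wild type for each gene in mesangial cells (green), podocytes (purple) and endothelial cells (orange), with 95% intervals of limma fits on 3 against 3 arrays. *Nr2f1* lies at -0.62 in mesangial cells, *Meis2* at -1.47 in podocytes and *Nr2f2* at 0.89 in endothelial cells, and *Gata3* and *Nr2f1* have no endothelial point because they were under a signal of 100.

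*Nr2f1* was 179.0, 191.1 and 229.8 in mutant mesangial arrays against 301.8, 317.5 and 297.3 in wild type ones. All mutant arrays were below all wild type arrays. *Nr2f1* fell by 0.62 on the log2 scale (SE 0.11, fold 1.54, adjusted p = 0.0418), and it also passed the study's screen of an unadjusted p under 0.05 and a fold over 1.5, as 3.12% of transcript clusters did in that direction. The call was lost without mutant array A (-0.54) or B (-0.59) and without wild type array A (-0.63), B (-0.59) or C (-0.64), with adjusted p from 0.0694 to 0.146. With *Ddx3y* as a covariate the difference was -0.60 and the adjusted p 0.329.

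*Gata3* was 1106.6, 894.1 and 1074.1 in mutant mesangial arrays, all below the wild type arrays. The difference was -0.48 (SE 0.12, 95% interval -0.77 to -0.18, adjusted p = 0.0949). The summed mesangial markers were 10276, 9235 and 9758 in mutant arrays against 12692, 13689 and 12389 in wild type arrays, with 4 of 10 lower by adjusted p and a median of -0.54 over the list. *Pdgfrb* fell by 0.58 and *Itga8* fell by 0.59 on the log2 scale (adjusted p = 0.042 and 0.0235). *Nr2f1* and *Gata3* were thus in the range of the markers, and the part of the marker level in their differences was not tested.

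The other members lay the other way or close to 0 in mesangial cells, and none passed. *Nr2f2* was 788.1, 700.7 and 804.8 in mutant arrays, all above the wild type arrays, with a difference of 0.28 (SE 0.11, adjusted p = 0.222). *Meis1*, the source of the reporter, was 320.6, 271.2 and 231.0 in mutant arrays, also without overlap, with a difference of 0.39 (SE 0.14, adjusted p = 0.171). The difference of *Pbx3* was 0.30 (SE 0.12, adjusted p = 0.224), on mutant values of 168.4, 185.2 and 189.7 that did not overlap the wild type ones. *Ebf1* was 971.3, 902.3 and 833.4 in mutant arrays, which overlapped the wild type ones, with 0.13 (SE 0.09, adjusted p = 0.478). *Meis2* was 656.6, 668.5 and 516.9, with -0.12 (SE 0.18, adjusted p = 0.747), and without wild type array C the sign turned to 0.06. Groups did not overlap for 5 of the 7 members, where 28.6% of all transcript clusters had no overlap.

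In podocytes *Meis2* had the widest difference. Its signal was 347.0, 174.2 and 150.2 in mutant arrays against 535.4, 683.9 and 526.9 in wild type ones. Every mutant array was below every wild type array. The difference was -1.47 (SE 0.30, 95% interval -2.18 to -0.76, fold 2.77), with an unadjusted p of 0.00148 and an adjusted p of 0.143. Without mutant array A, its highest, it was -1.84 and passed (adjusted p = 0.0114). The summed signal of 10 endothelial markers was 2931, 1355 and 936 in the same mutant arrays and 5219, 6218 and 4668 in the wild type ones. Arrays thus took the same order in *Meis2* and in the endothelial markers, of which 8 were lower by the study's screen with a median of -1.63. Their part in the *Meis2* difference was not tested.

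*Meis2* passed the study's screen as lower in podocytes, where 4.34% of all transcript clusters did. *Meis1* and *Nr2f1* met the screen too, but all their mutant arrays were under 100 and they were tested only through their wild type arrays. *Meis1* was 78.6, 97.1 and 67.4 in mutant arrays, all below the wild type arrays, with -0.60 as fitted (SE 0.16, adjusted p = 0.204) and -0.28 with the mutant signal set to 100. *Nr2f1* was 81.6, 84.7 and 37.6, and the highest mutant array lay just below the lowest wild type array at 87.6. The difference of *Nr2f1* was -0.86 as fitted (SE 0.37, adjusted p = 0.347) and -0.21 with the mutant signal set to 100. Groups did not overlap for these genes and *Meis2*, where 21.3% of all transcript clusters had no overlap.

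Mutant podocyte array C, lowest in mesangial markers, was also the lowest of the 6 podocyte arrays in each member but *Nr2f2*, in which it was the lowest of the mutant arrays. *Gata3* was 411.3, 512.3 and 188.3 in mutant podocyte arrays, with -0.59 (SE 0.35, adjusted p = 0.478). *Ebf1* was 190.3, 167.0 and 59.3, with -0.90 (SE 0.43, adjusted p = 0.386). In both genes the genotypes overlapped. Without array C the differences were -0.17 for *Gata3*, -0.37 for *Ebf1*, -0.48 for *Nr2f1*, -0.48 for *Meis1* and -1.23 for *Meis2*, and none passed. The mesangial markers as a whole had a median of -0.71 in mutant podocytes, with 5 of 10 lower by the screen and none by adjusted p.

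*Nr2f2* differed little between podocyte arrays. It was 385.4, 398.5 and 376.2 in mutant podocyte arrays and 419.3, 364.9 and 398.6 in wild type ones. The genotypes overlapped. The summed signal of 8 juxtaglomerular and smooth muscle markers was 3586, 2914 and 1418 in mutant podocyte arrays and 1215, 1176 and 1197 in wild type ones, so the genotypes did not overlap in that sum. The part of these cells and of mesangial RNA in the *Nr2f2* signal was not tested. The difference was -0.03 with a 95% interval of -0.30 to 0.25 (SE 0.12, adjusted p = 0.938), and -0.01 without array C. *Pbx3* was 159.7, 219.9 and 157.6 in mutant arrays and overlapped the wild type arrays as well, with -0.07 and a 95% interval of -0.45 to 0.31 (adjusted p = 0.879).

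**Figure D4:**
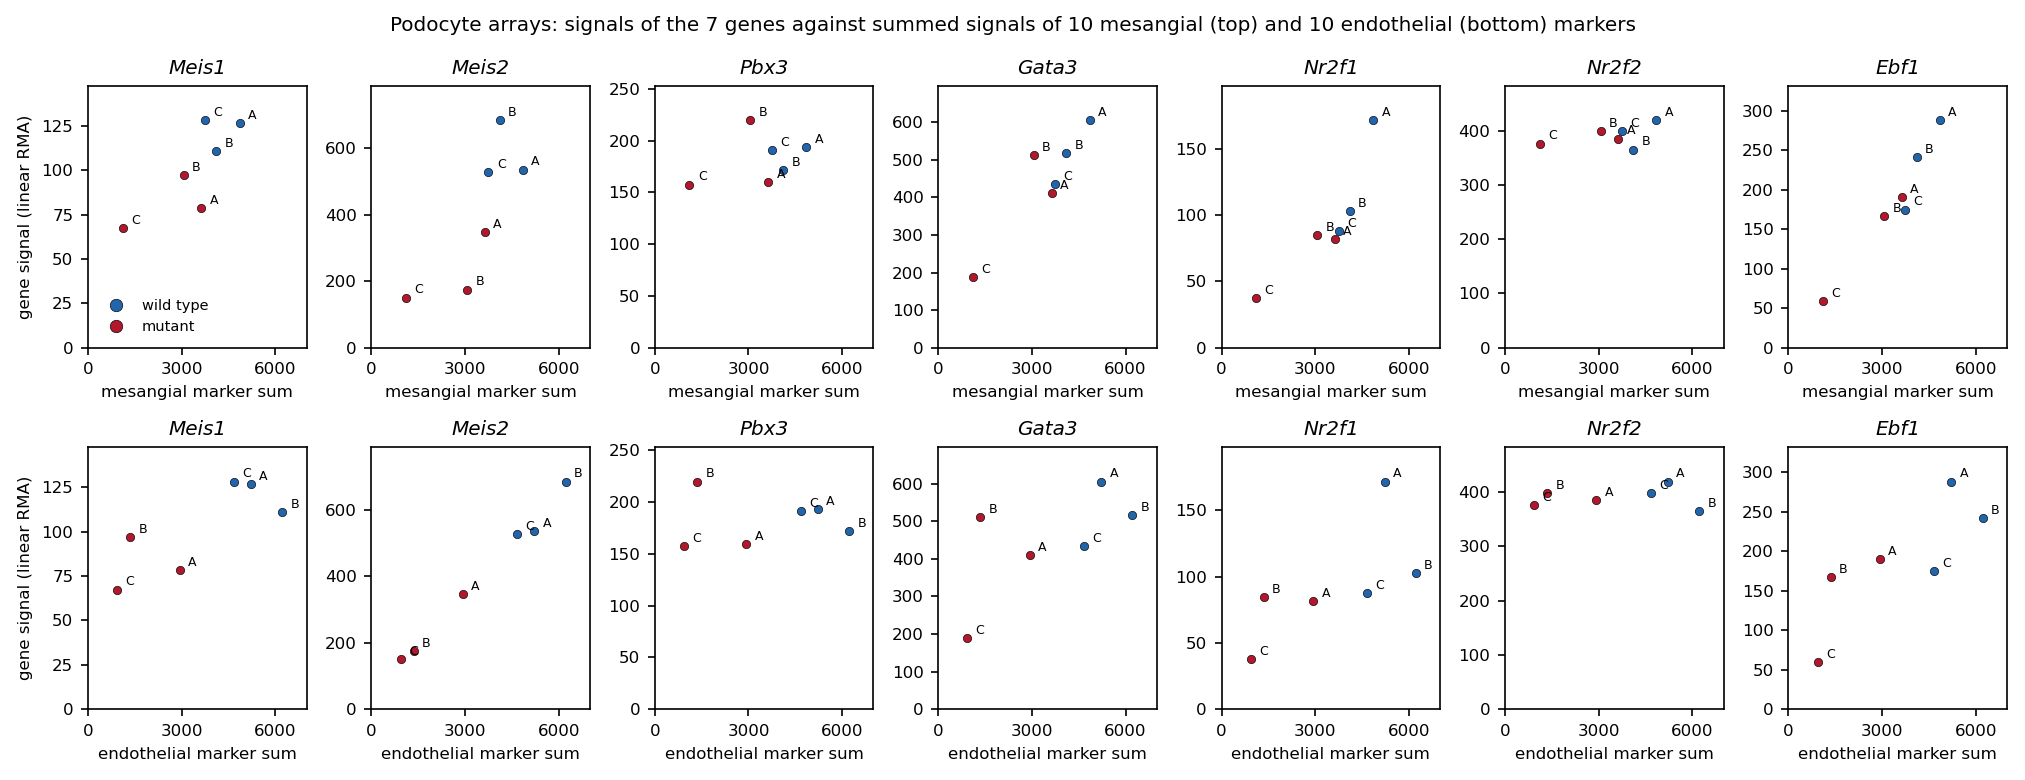
Linear signal of each gene in the 6 podocyte arrays against the summed signal of 10 mesangial markers (top) and of 10 endothelial markers (bottom), wild type in blue, mutant in red, letters naming arrays. *Meis2* climbs with the endothelial sum from 150.2 to 683.9, array C of the mutants is lowest in each gene but *Nr2f2*, and *Nr2f2* stays between 364.9 and 419.3.

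In endothelial cells the largest difference was that of *Nr2f2*. It was 274.0, 160.3 and 193.1 in mutant arrays against 105.8, 127.5 and 99.3 in wild type ones, so that all mutant arrays were higher. The difference was 0.89 (SE 0.20, 95% interval 0.43 to 1.34, fold 1.85), with an unadjusted p of 0.00201 and an adjusted p of 0.0799. It was the sole member past the study's screen there, where 2.96% of transcript clusters passed as higher. *Ddx3y* was at 100 or more in mutant arrays A and B and in no wild type array. Over the alternatives, with *Ddx3y* as a covariate among them, the limma adjusted p of *Nr2f2* was 0.0148 to 0.459. Of 10 endothelial markers 1, *Plvap*, also passed the screen as higher (0.94, SE 0.24, adjusted p = 0.11), while the list had a median of 0.15. Its relation to *Nr2f2* was not tested. The mesangial marker sum was 1012, 704 and 733 in the mutant arrays and 725, 637 and 723 in the wild type arrays. Without *Serpine2* the sum was 545, 527 and 482 in mutant and 606, 541 and 592 in wild type arrays. Without mutant array A, the highest in *Nr2f2*, the difference was 0.67 (adjusted p = 0.167), and without mutant array B, the lowest mutant in *Nr2f2*, it was 1.06 and passed (adjusted p = 0.0407). Of the 10 mesangial markers, 8 were below 100 in all 3 mutant arrays, among them *Pdgfrb* at 51.2, 52.4 and 55.4. *Serpine2*, a secreted protease inhibitor, was the marker that passed the screen, with 467.4, 177.0 and 250.5 in mutant arrays against 118.8, 95.4 and 131.3 in wild type ones (1.27, SE 0.32, adjusted p = 0.111). The other 9 mesangial markers were below 100 in all 3 wild type endothelial arrays, so no direction is read from them or from the sum without *Serpine2*. Mutant arrays took the same order in *Serpine2* and *Nr2f2*, and the part of mesangial RNA in the *Nr2f2* difference was not tested.

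*Pbx3* was 214.1, 220.5 and 232.1 in mutant endothelial arrays, all above the wild type arrays. The difference was 0.38 (SE 0.09, 95% interval 0.18 to 0.57, adjusted p = 0.0877), and with array medians subtracted it was 0.45 (adjusted p = 0.0416). *Meis2* was 1524.0, 1826.2 and 1460.1, with -0.23 (SE 0.11, adjusted p = 0.315). *Meis1* at 168.9, 194.4 and 148.8 and *Ebf1* at 341.7, 359.0 and 430.8 overlapped the wild type arrays, with 0.04 and -0.02. Of the 5 tested members, the groups of *Pbx3* and *Nr2f2* did not overlap, where 25.1% of all transcript clusters had no overlap. *Gata3*, at 63.0, 54.2 and 57.0, and *Nr2f1*, at 46.9, 39.0 and 41.5, were not tested.

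Whether the genotype effect differed between cell types was tested as an interaction over all 18 arrays. Control columns read +:- in mesangial cells alone, so in both interactions with mesangial cells control genotype and cell type cannot be told apart. Between podocytes and mesangial cells, where 0.717% of 13523 transcript clusters passed, *Meis1* passed as fitted, with -1.0 on the log2 scale (SE 0.21, adjusted p = 0.0429). Its mutant podocyte arrays all lay under 100, and with that group set to 100 the difference was -0.68, for which no test was made, so no difference is read from the call. *Nr2f2* passed between endothelial cells and podocytes, where 2.11% did, with an effect that was higher in endothelial cells by 0.91 (SE 0.22, 95% interval 0.44 to 1.38, adjusted p = 0.0452). Between endothelial and mesangial cells 0 of the 7 passed by limma, where 1.07% of all did, and *Nr2f2* gave 0.61 (SE 0.22, adjusted p = 0.189). *Gata3* and *Nr2f1* are among the 7 but lay under 100 in all endothelial arrays. They entered the fit only through the other cell types, so nothing is read from them in either comparison with endothelial cells. At an unadjusted p under 0.05 were 3 of 7 members between podocytes and mesangial cells, 1 between endothelial and mesangial cells and 4 between endothelial cells and podocytes, against 12%, 15.9% and 23.4% of all transcript clusters, with *Meis1* among the 3 and the 4. *Meis2* gave -1.35 between podocytes and mesangial cells (SE 0.34, adjusted p = 0.102) and 1.24 between endothelial cells and podocytes (SE 0.34, adjusted p = 0.0675), without a call. Without mutant podocyte array A these were -1.72 and 1.61 and both passed (adjusted p = 0.00141 and 0.00157), as did the former without wild type mesangial array C (-1.53, adjusted p = 0.044). The call of *Meis1* as fitted ended without most single arrays, among them mutant mesangial arrays A (-0.88) and B (-1.0), mutant podocyte array C (-0.87), each wild type mesangial array (-1.05 to -0.93) and each wild type podocyte array (-1.06 to -0.96). That of *Nr2f2* ended without any one of mutant endothelial arrays A (0.70) and C (0.95), mutant podocyte arrays B (0.93) and C (0.89), the wild type endothelial arrays (0.84 to 1.02) and the wild type podocyte arrays (0.87 to 0.97).

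The likeness of genes to each member was read as Pearson's r of log2 signals over the 18 arrays, a description, since the arrays of a group share their cell type. *Gata3* ran closest to *Agtr1a* (0.99), *Khdrbs3* (0.986) and *Pdgfrb* (0.985), so that 2 of its 3 nearest genes were mesangial markers. *Meis2* ran closest to *Hmbox1* (0.984), *Sema6d* (0.983) and *Ldb2* (0.981). *Nr2f2* ran closest to *Diap2* (0.966), *Gpc3* (0.951) and *Plcl1* (0.95), and *Meis1* to *Map4k3* (0.947), *Rab31* (0.938) and *Ttc28* (0.935). *Pbx3*, with its flat profile, reached only 0.819 with *Exoc1*, 0.797 with *Osbpl2* and 0.795 with *Foxp1*. *Nr2f1* had *Chn1* (0.972) and *Epha7* (0.971) among its 3 nearest, and *Ebf1* had *Tlr4* (0.97) and *Mpdz* (0.959), and the remaining gene of each has a septin symbol that the table holds as a date. Within the set, r was 0.92 for *Gata3* with *Nr2f2* and for *Meis1* with *Ebf1*, 0.91 for *Gata3* with *Nr2f1* and 0.78 for *Nr2f1* with *Nr2f2*. The Meis genes reached 0.5 with each other, and *Meis2* had -0.63 with *Nr2f2*.

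Relatives and cofactors of the set, 19 genes such as further Pbx, Gata and Ebf factors, included 10 that reached a signal of 100 in any of the 18 arrays. In the genotype comparisons 7 were tested in mesangial cells, 8 in podocytes and 7 in endothelial cells, and 0 passed by limma in any. Between wild type cell types, *Pbx2* was highest in podocytes, with -1.04 for mesangial minus podocyte (SE 0.13, adjusted p = 2.85e-05) and 1.82 for podocyte minus endothelial (SE 0.13, adjusted p = 4.07e-08). *Gata5*, a factor of endothelial and endocardial cells, was higher in endothelial than in mesangial cells, by -1.98 for mesangial minus endothelial (SE 0.25, adjusted p = 1.70e-05).

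Among 22 other stromal and mural transcription factors, 14 were tested in mesangial cells. Of these 1, *Tbx3*, fell in the mutants, where 1.68% of all transcript clusters passed as lower. *Tbx3*, a T-box repressor, fell by 0.75 on the log2 scale (SE 0.09, fold 1.68, adjusted p = 0.0155), and the median of the list was -0.20 against -0.02 over all. In podocytes *Tbx3*, *Snai2* and *Mef2c* passed the screen as lower, with -1.17, -1.12 and -0.70, where 4.34% of all transcript clusters did. None had an adjusted p under 0.05 (0.134, 0.143 and 0.295). In the same arrays 8 of 10 endothelial markers passed the screen as lower, with a median of -1.63, and 5 of 10 mesangial markers, with a median of -0.71. The part of these markers in the 3 differences was not tested. In endothelial cells *Foxc2*, a forkhead factor, passed the screen as higher, with a mean of 169.6 in mutants against 104.2 (0.68, SE 0.16, adjusted p = 0.0923), among the 2.96% that did. In wild type arrays 3 of 15 were higher in mesangial cells than in podocytes as fitted, *Snai2* (1.55), *Twist1* (1.23) and *Nfib* (1.21). Another 3 were lower, where 3.73% of all transcript clusters passed as higher and 2.97% as lower. The lower genes were *Foxd1* (-4.21 as fitted), *Tcf21* (-3.82) and *Foxc2* (-2.31), with adjusted p of 9.96e-07, 2.58e-06 and 3.07e-07. *Foxd1*, a marker of stromal progenitors in the fetal kidney, had a mean of 1037 in podocytes and 74.2 in mesangial cells, under 100, where background is not told apart from signal. *Tcf21* had means of 1363 and 112.6. Against endothelial cells 5 of 15 were higher in mesangial cells as fitted, where 4.75% of all transcript clusters were. *Foxc1* led them (2.88 as fitted, SE 0.12, adjusted p = 9.28e-11). Means of *Foxc1*, *Twist1* and *Heyl* in endothelial cells and of *Twist1* in podocytes were also under 100. Mesangial means of *Twist1* and *Heyl*, 167.5 and 146.4, were less than a fold of 2 above 100. Nothing is read from their calls or from the counts that include them.

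Of 11 genes known downstream of *Nr2f2* or *Ebf1* in other tissues, 6 were tested in mesangial cells, 5 in podocytes and 8 in endothelial cells. Between genotypes 1 passed, in mesangial cells. *Efnb2*, an ephrin of arterial and mural cells, was 899 in mutant and 1881 in wild type mesangial cells on average, and it fell by 1.06 on the log2 scale (SE 0.09, adjusted p = 0.00492). In that comparison 1.68% of all transcript clusters passed as lower. The endothelial markers *Tek* (-1.19, adjusted p = 0.0497) and *Ehd3* (-0.98, adjusted p = 0.0121) also fell, with a median of -0.43 over 10. Of 10 mesangial markers 4 fell by adjusted p, with a median of -0.54. The part of these markers in the *Efnb2* difference was not tested. In podocytes *Nrp1* and *Efnb2* passed the screen as lower, with -1.45 and -1.14 (adjusted p = 0.154 and 0.271), where 4.34% of all transcript clusters did. Of 10 endothelial markers 8 passed the screen as lower in these arrays, with a median of -1.63, and their part in both differences was not tested. In endothelial cells 0 of 8 tested passed by limma, and *Hey2*, a Notch target, passed the screen as lower (-0.87, SE 0.28, adjusted p = 0.182), where 0.865% of all did. Between wild type cell types, 4 of 8 were lower in mesangial than in endothelial cells as fitted, where 3.79% of all transcript clusters were. They were the Notch ligand *Dll4*, *Hey1*, *Hey2* and the ephrin receptor *Ephb4*. *Ephb4* differed by -1.39. Mesangial means of the other 3 were under 100, against 199 for *Dll4*, 307.4 for *Hey1* and 154.6 for *Hey2* in endothelial cells. Those of *Dll4* and *Hey2* in endothelial cells were less than a fold of 2 above 100, so nothing is read from the count. *Pparg*, a nuclear receptor of fat cells, was higher in mesangial cells than in podocytes (1.03, SE 0.21, adjusted p = 0.00211).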

How the data were processed

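RNA of the sorted cells was amplified with the Ovation Pico system and hybridized to Mouse Gene 1.0 ST arrays. The sample records name gene level RMA in Expression Console, the methods name GeneSpring, and the series record names Exon arrays and GeneBASE, which header and methods do not. The authors deposited linear intensity values, which the file header calls raw and the sample records ascribe to RMA. These were used here, and 18 further columns named as normalized were not. Names of the mesangial control columns read +:- and their titles say control, whereas the sample records give wild type. For each test the signals were transformed to log2 and fitted in R 4.3.3 with limma 3.58.1 (lmFit, eBayes), with Benjamini-Hochberg adjustment over all transcript clusters tested. A transcript cluster was tested if any array of the fit reached a signal of 100, with 6 arrays for a genotype comparison and 18 for cell types and interactions. Calls needed an adjusted p under 0.05 and, for cell types, a fold over 2 as well. The fits were tested on simulated data. Precision is limited by the number of arrays, 3 in each group, and p-values measure the spread between these arrays.

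Genes named are the 7 members, genes of their lists past a threshold, *Cd2ap* and, for each member, the 3 transcript clusters with 1 symbol that were most like it. Markers and *Ddx3y* are named where they stand beside a result. Members and lists were chosen with earlier results of these data known. Upstream windows came from a RefSeq table, in which *Pbx3* was not matched. Alternatives were another or no signal minimum, an intensity trend with robust estimation, subtracted array medians, repeated quantile normalization, all 18 arrays or the 6 arrays of a comparison in 1 fit, the mean over transcript clusters of a symbol, the study's screen and each array left out. The covariate *Ddx3y* and the joint removal of wild type mesangial array C and mutant podocyte array C were chosen after seeing the data, as were bounds with a group of arrays that all lay under 100 set to 100. RNA-seq of the study was not used here, and some items are not reported here.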

Additional observations from a re-analysis of the deposited data

Results flagged for a closer look

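The genotype effect on *Meis1* differed between podocytes and mesangial cells by -1.0 on the log2 scale as fitted, from the interaction term of limma (adjusted p = 0.0429, and 0.0172 to 0.107 over the alternatives). All mutant podocyte arrays were under 100, and with that group set to 100 the difference was -0.68, without a test, so nothing is read from the call. The effect as fitted was -0.60 in podocytes and 0.39 in mesangial cells, with all 3 mutant arrays below the wild type arrays in the former and above them in the latter. *Meis1* drove the reporter of the mesangial sort alone. Control columns read +:- in mesangial cells alone, so control genotype and cell type cannot be told apart in the *Meis1* difference. The genotype effect on *Nr2f2* differed between endothelial cells and podocytes by 0.91 (adjusted p = 0.0452, and 0.0215 to 0.117 over the alternatives). It was 0.89 in endothelial cells and -0.03 in podocytes, with all 3 mutant endothelial arrays above the wild type ones. No alternative of either interaction had *Ddx3y* as a covariate.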

How the results depend on the processing

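No paired analysis was possible because the replicate numbers of the labels differ between groups. Of the 12 counts of calls, that of *Nr2f1* in mesangial cells went from 1 to 0 with no signal minimum, with all 18 arrays in 1 fit and with *Ddx3y* as a covariate, and to 2 with an intensity trend and robust estimation, which added *Gata3*. In podocytes the count was 2 with all 18 arrays in 1 fit (*Meis1* and *Meis2*) and 3 by the study's screen. In endothelial cells it was 1 with array medians subtracted (*Pbx3*), with all 18 arrays in 1 fit (*Nr2f2*) and by the screen. The interaction count between podocytes and mesangial cells was 0 with no minimum, with array medians subtracted and without both arrays that stood apart. The interaction count between endothelial cells and podocytes was 0 with no minimum, after repeated quantile normalization and without both arrays, and 2 with medians subtracted (*Meis2* added). With 1 array left out, counts ranged from 0 to 1 in each genotype comparison and from 0 to 2 in these 2 interactions. Counts between cell types, *Meis1* included, stayed within 1.5 times: 3 to 6 over all arrays left out.

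Signs turned for differences near 0 that no setting called. Repeated quantile normalization gave 0.03 for *Pbx3* and 0.10 for *Nr2f2* between genotypes in podocytes, -0.07 for *Meis1* in endothelial cells, -0.08 for *Pbx3* as mesangial minus podocyte in mutants, 0.04 for the interaction of *Gata3* between podocytes and mesangial cells and -0.08 for that of *Pbx3* between endothelial and mesangial cells. *Ebf1* in endothelial cells was 0.06 with medians subtracted and 0.18 with *Ddx3y* as a covariate, which gave 0.13 for *Meis2* in mesangial cells and -0.15 for *Meis1* in endothelial cells. With 1 array left out, ranges that crossed 0 between genotypes were -0.11 to 0.05 for *Ebf1* and -0.06 to 0.13 for *Meis1* in endothelial cells, -0.24 to 0.06 for *Meis2* in mesangial cells, and -0.22 to 0.02 for *Pbx3* and -0.08 to 0.02 for *Nr2f2* in podocytes. *Pbx3* as mesangial minus podocyte in mutants gave -0.05 to 0.19. Between podocytes and mesangial cells the interaction ranged from -0.41 to 0.31 for *Gata3* and from -0.44 to 0.16 for *Nr2f1*. Between endothelial and mesangial cells it ranged from -0.29 to 0.01 for *Meis2* and from -0.01 to 0.19 for *Pbx3*. The causes were not tested. With *Ddx3y* in the fit, which leaves 3 residual degrees of freedom, 1, 1 and 28 transcript clusters of all passed in mesangial cells, podocytes and endothelial cells, where 335, 7 and 146 did without it. Signal over background limits *Gata3* and *Nr2f1* in endothelial arrays, and *Meis1* and *Nr2f1* in mutant podocyte arrays, which lay below 100.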
